A study of Mus musculus with 3 samples.

Results

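The regions described here are the open chromatin sites that were present in all 3 libraries of a mouse oligodendrocyte study and that lay at an end of a protein-coding gene. They were taken from the autosomal ATAC-seq peaks of control cells after 1 day of differentiation. A peak was kept if its pileup, the number of fragments stacked at its summit, was at least 1 for every 1000000 fragments of the library (FPM in what follows), if a peak of each other library overlapped it by at least 1 bp, and if it lay within 1000 bp of either annotated end of a RefSeq coding gene in mm10. The 1000 widest peaks of that library were left out. Of 118441 peaks, 9521 met the rule. The members were thus selected on measured values, their presence in the 3 lists and their pileup and width in control cells at day 1. Presence is no finding, and the values below are a description.

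ATAC-seq uses a transposase to cut and label DNA that is open. It was run on mouse oligodendrocyte progenitor cells, which give rise to the myelin-forming cells of the brain, immunopanned from cortices of C57BL/6 pups of postnatal day 4 to 7 and grown in culture, with 50000 cells for a library. There were 3 libraries, 1 per group. The Seh1cKO library at day 1 came from cells with a conditional knockout of Seh1, a nuclear pore protein, after 1 day of triiodothyronine (T3, 60 nM). The control library at day 1 came from wild type cells after the same treatment, and the control progenitor library from wild type cells before T3, whose sample title was read as day 0. Progenitor medium held PDGF-AA at 20 ng/ml, CNTF at 10 ng/ml, bFGF at 20 ng/ml and NT3 at 1 ng/ml. With T3 the PDGF-AA, bFGF and NT3 were withdrawn, so the hormone and the loss of these factors cannot be told apart in any comparison between stages. The sources used here give neither the driver of the conditional deletion nor the part of the gene it removes. Seh1cKO progenitors were not analysed here.

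The 3 libraries held 10845533 fragments in Seh1cKO cells, 18260883 in control cells at day 1 and 23403600 in progenitors. The lists held 46113, 118441 and 108788 peaks in the same order, and the lowest pileup in them was 6, 8 and 9 fragments. With single libraries nothing below could be checked against replicates, and p-values are left out. The shallower Seh1cKO library and its genotype cannot be told apart. Of 8 markers of the oligodendrocyte lineage, 7 had a gene-end peak in Seh1cKO cells, 8 in control cells at day 1 and 7 in progenitors. Of 6 progenitor markers 5, 5 and 5 had one in that order, and of 8 myelin markers 3, 5 and 5. Of 6 markers each for other cell types, astrocyte genes had 5, 5 and 5 in that order, neuron genes 4, 5 and 5, microglia genes 2, 2 and 2, and endothelial and mural genes 1, 3 and 2. An open gene end is not expression, so these counts do not measure how many other cells were present.

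In mammals most gene starts that are open across cell types lie in CpG islands, stretches rich in CG dinucleotides that usually stay free of DNA methylation. Sequence-specific factors and the transcription machinery keep a nucleosome-depleted gap there, which a transposase enters readily. Genes needed by every cell, such as those for ribosomes, respiration and the proteasome, typically have such starts. Cell-type genes more often depend on distal enhancers, and many have starts with few CG dinucleotides.

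The promoters of 5 genes show the range of sequence under these peaks. Hjurp, which encodes the chaperone that deposits the centromeric histone CENP-A, and Pja2, a ubiquitin ligase gene, were among the 6 highest members in control cells at day 1. Etfdh, a mitochondrial electron transfer gene, had the highest pileup among promoters with the NRF1 motif. Neu4, a sialidase gene, and Vcan, which encodes the proteoglycan versican of progenitors, had low ratios of Seh1cKO over control. Etfdh and Vcan were chosen after their values were seen. Each sequence is the 300 bases from 250 before to 50 from the RefSeq start on, 5′ to 3′ on the gene's strand in GRCm38.p6, whose chromosome coordinates are those of mm10, with every CG dinucleotide in capitals. They lie at chr1:88277530-88277829 on the minus strand for Hjurp, chr17:64331834-64332133 (minus) for Pja2, chr3:79628718-79629017 (minus) for Etfdh, chr1:94020243-94020542 (plus) for Neu4 and chr13:89742463-89742762 (minus) for Vcan.
Hjurp: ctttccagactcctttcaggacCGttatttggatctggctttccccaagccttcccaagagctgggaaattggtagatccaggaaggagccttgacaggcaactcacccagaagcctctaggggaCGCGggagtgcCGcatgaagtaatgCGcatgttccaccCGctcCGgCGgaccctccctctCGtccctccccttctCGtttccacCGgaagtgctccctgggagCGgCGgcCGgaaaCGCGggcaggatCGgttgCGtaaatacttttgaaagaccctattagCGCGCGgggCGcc
Pja2: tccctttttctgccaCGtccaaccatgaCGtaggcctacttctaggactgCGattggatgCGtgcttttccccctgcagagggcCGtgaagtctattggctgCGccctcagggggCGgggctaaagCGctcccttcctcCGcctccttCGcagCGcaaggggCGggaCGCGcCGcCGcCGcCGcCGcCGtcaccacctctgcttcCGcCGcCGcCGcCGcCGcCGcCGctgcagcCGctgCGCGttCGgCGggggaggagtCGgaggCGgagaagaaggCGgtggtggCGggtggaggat
Etfdh: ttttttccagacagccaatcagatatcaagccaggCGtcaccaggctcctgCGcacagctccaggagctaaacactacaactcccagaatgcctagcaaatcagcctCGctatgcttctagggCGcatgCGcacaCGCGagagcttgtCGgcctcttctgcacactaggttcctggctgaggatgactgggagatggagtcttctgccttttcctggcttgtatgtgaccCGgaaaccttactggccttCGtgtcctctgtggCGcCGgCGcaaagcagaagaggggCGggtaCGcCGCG
Neu4: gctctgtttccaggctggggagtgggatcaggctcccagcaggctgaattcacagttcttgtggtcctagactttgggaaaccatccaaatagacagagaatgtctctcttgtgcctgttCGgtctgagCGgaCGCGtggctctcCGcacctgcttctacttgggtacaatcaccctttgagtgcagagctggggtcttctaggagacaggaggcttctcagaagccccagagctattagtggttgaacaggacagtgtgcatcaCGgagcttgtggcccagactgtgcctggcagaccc
Vcan: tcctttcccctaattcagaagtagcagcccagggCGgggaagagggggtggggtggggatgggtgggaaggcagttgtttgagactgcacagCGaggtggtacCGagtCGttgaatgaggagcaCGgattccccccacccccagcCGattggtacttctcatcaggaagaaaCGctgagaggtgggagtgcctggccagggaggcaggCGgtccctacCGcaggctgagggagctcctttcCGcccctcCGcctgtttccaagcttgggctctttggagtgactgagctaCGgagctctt
The Hjurp window held 22 CG dinucleotides, Pja2 37, Etfdh 17, Neu4 6 and Vcan 12. Relative to the number that the C and G content would give (CpG observed over expected), the values were 0.83, 1.01, 0.69, 0.26 and 0.44. The Neu4 window is thus the poorest of the 5 in CG dinucleotides, and it held none of the 12 motifs searched.

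The label of the set was checked first. Of the members whose gene strand is in the RefSeq promoter table, 7365 were at a gene start and 319 only at the other end, so 95.8% were start peaks. For the remaining 1837 the strand was not in the table. The end itself lay inside the peak for 7123 members (74.8%). They covered 9895 of 20665 autosomal coding genes (47.9%). Gene ends were kept more often than other sites: of 10881 autosomal gene-end peaks that passed the pileup floor and were not among the widest, 87.5% were present in both other libraries, against 63.3% of 25578 peaks further from a gene end. These shares were not matched on pileup or width. Members were higher and wider than distal constant peaks, and the part of this in the shares was not tested. The word constant holds for presence only, since pileups (FPM) differed between the libraries.

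Start peaks centred on the annotated start in every library. Among 7238 members whose nearest gene end was a start, the median summit lay 14 bp into the gene in Seh1cKO cells, 26 bp in control cells at day 1 and 24 bp in progenitors. Summits within 100 bp of the start made up 52.0%, 49.8% and 48.4% of the peaks in that order. The summit of a member moved by a median of 49 bp between Seh1cKO and control cells at day 1, and by 55 bp between control cells at day 1 and progenitors. For distal constant peaks, which met the same rule without a gene end within 1000 bp, these shifts were 51 and 50 bp.

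**Figure D1:**
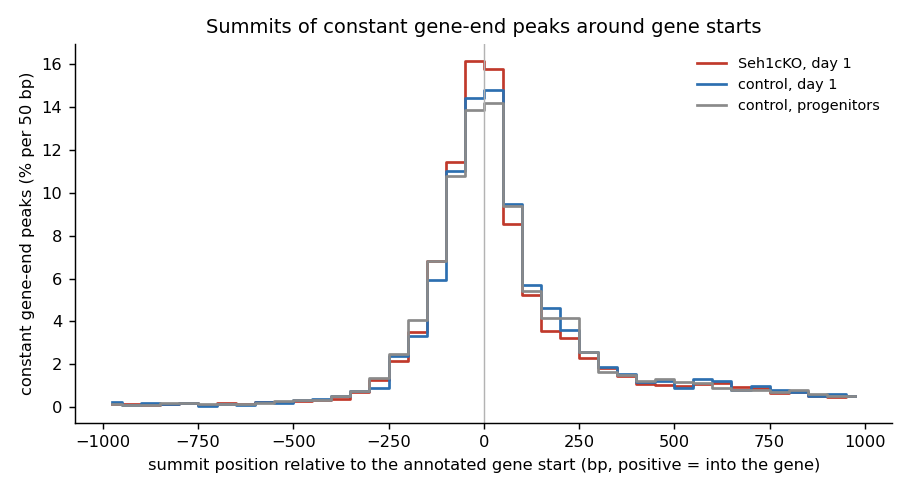
Summit position relative to the annotated start in bp (x axis, positive into the gene) against the percent of the 7238 start peaks in each 50 bp bin (y axis), with a line for each library. All 3 lines are highest beside the start, and their medians lie 14 bp (Seh1cKO day 1), 26 bp (control day 1) and 24 bp (progenitors) into the gene.

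Peaks with a summit near the start were the higher ones. With the summit within 100 bp of the start (3580 peaks, by the control day 1 summit) the median pileup (FPM) was 3.32 in Seh1cKO cells, 3.07 in control cells at day 1 and 2.22 in progenitors. With the summit at 700 bp or more (628 peaks) it was 2.03, 2.08 and 1.69. The median log2 ratio of Seh1cKO over control was 0.04 in the near group and −0.07 in the far group.

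Gene-end members were higher and wider than distal constant peaks. The median member had a pileup (FPM) of 2.86 in Seh1cKO cells, 2.79 in control cells at day 1 and 2.01 in progenitors. For the 16182 distal constant peaks the medians were 1.48, 2.03 and 1.41. In fragments, the median member had 31, 51 and 47 in the 3 libraries, which sets the counting error of any single site. From the 5th to the 95th percentile the members spanned 1.01 to 7.65 FPM in Seh1cKO cells. The same span was 1.20 to 7.89 FPM in control cells at day 1 and 0.81 to 5.30 FPM in progenitors.

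The members differed among themselves by the kind of gene end. Start peaks had medians of 2.95, 2.85 and 2.09 FPM in Seh1cKO cells, control cells at day 1 and progenitors. The 319 peaks at the other end only had 1.48, 2.03 and 1.37, close to distal peaks. The 779 peaks that covered starts on both strands, as at divergent gene pairs, had the highest medians of these classes, 3.87, 3.45 and 2.48.

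**Figure D2:**
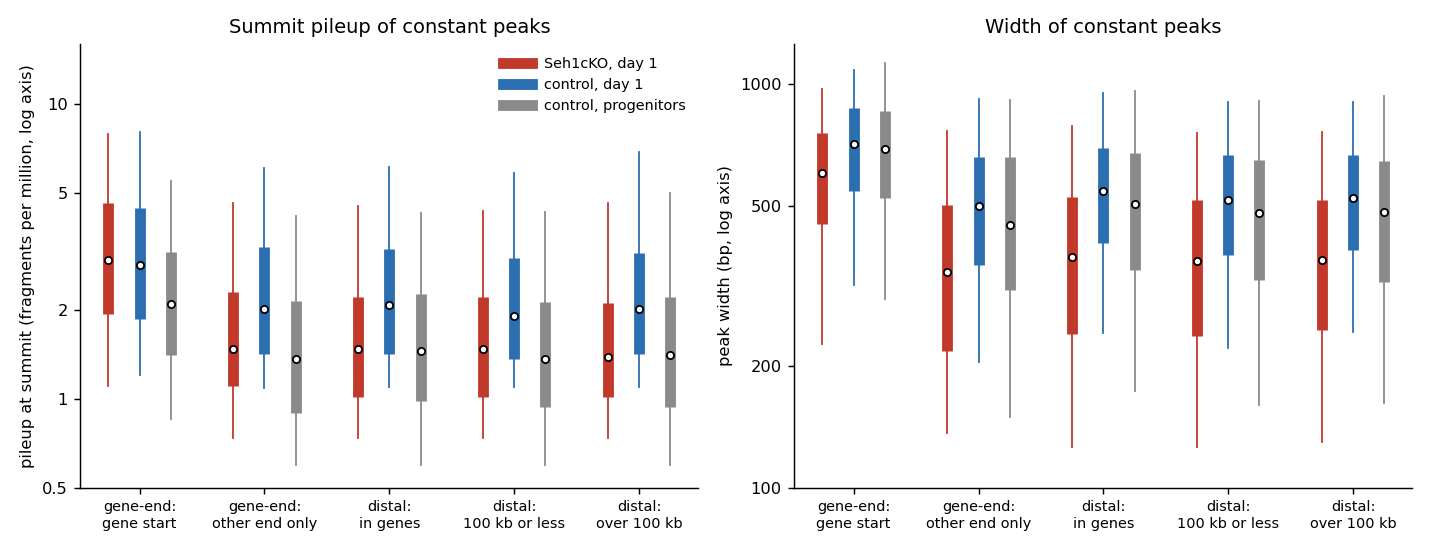
Summit pileup in FPM (left, log axis) and peak width in bp (right, log axis) of constant peaks by class, for Seh1cKO day 1, control day 1 and progenitors. Points are medians, thick bars the middle 50% and thin bars the middle 90% of peaks; gene-start peaks sit above distal peaks in all 3 libraries, and peaks at the other gene end sit with the distal ones.

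Widths were smaller in Seh1cKO cells. The median member was 589 bp wide in Seh1cKO cells, 699 bp in control cells at day 1 and 675 bp in progenitors, and distal constant peaks were 370, 532 and 494 bp wide. The median log2 width ratio of Seh1cKO over control at day 1 was −0.22 for members and −0.45 for distal peaks. That of control day 1 over progenitors was 0.04 for members and 0.08 for distal peaks. The width of a called peak moves with depth and local background, and their part in this was not tested. Fold enrichment over the local background, the authors' value, had member medians of 8.90 in Seh1cKO cells, 9.66 in control cells at day 1 and 8.67 in progenitors.

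Members kept their order from library to library. Over the 9521 members the Spearman correlation of pileup was 0.85 between Seh1cKO and control cells at day 1, 0.86 between control cells at day 1 and progenitors, and 0.86 between Seh1cKO cells and progenitors. Over distal constant peaks it was 0.62, 0.67 and 0.73. These correlations run across sites that share depth, sequence and the floor in control cells at day 1, and the range of pileups is wider among members, so they are descriptions.

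The highest member in control cells at day 1 was a narrow peak 898 bp from the end of Wls that is not its start (chromosome 3, 159939406 to 159939679). Wls encodes the carrier that brings Wnt ligands to the cell surface. This peak had 550 fragments in Seh1cKO cells, 852 in control cells at day 1 and 973 in progenitors, or 50.7, 46.7 and 41.6 FPM. Its width was 273, 274 and 273 bp, so its shape hardly differed between libraries. The next was inside Lars2, the mitochondrial leucyl-tRNA synthetase gene, near its other end (chromosome 9, 123461798 to 123462198), with 37.9, 30.5 and 34.9 FPM and widths of 395, 401 and 407 bp. The sources used here do not say whether regions of artificial signal were removed from the lists, and whether these 2 narrow, very high peaks are such regions was not tested. They were the only ones of the 6 highest that did not lie at a start.

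Among the strongest start peaks, that of Hjurp (chromosome 1, 88276831 to 88277943) had 309 fragments in Seh1cKO cells, 540 in control cells at day 1 and 449 in progenitors, which is 28.5, 29.6 and 19.2 FPM. Its ratio of Seh1cKO over control was 0.96 (95% interval 0.84 to 1.11, exact, counting error only). Zbtb20, the gene of a zinc finger repressor, had 195, 379 and 243 fragments in the same order, and Evi5l, a gene with a Rab GTPase-activating domain, 212, 347 and 286. Their FPM ratios of Seh1cKO over control were 0.87 (0.73 to 1.03) and 1.03 (0.86 to 1.22). The intervals of these 3 peaks include 1. Pja2 had 163, 376 and 278 fragments, and its ratio, 0.73 (0.60 to 0.88), lay below 1.

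Seh1cKO and control cells at day 1 were compared to describe how open these gene ends were when Seh1 had been targeted. At the typical member the libraries were level. The median log2 ratio of pileup (FPM), Seh1cKO over control, was −0.02 over the 9521 members, with the middle 90% of members from −0.79 to 0.70. At start peaks the median was 0.00, at starts on both strands 0.08, and at the 319 other ends −0.45. Distal constant peaks had a median of −0.45. In bulk cells, fewer cells with an open site and less opening per cell cannot be told apart.

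A level ratio depends on what is held equal. Over all 25703 constant peaks the median log2 ratio was −0.25. With the median of distal constant peaks set equal between the libraries, the median member was 0.43 higher in Seh1cKO cells. A constant scaling of this kind leaves the difference between gene ends and distal peaks as it is. By the authors' fold enrichment, which is not such a scaling, the median member was at −0.12.

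Gene ends differed from distal peaks at every height. When members and distal constant peaks were compared within deciles of the members' control day 1 pileup, the median log2 ratio of Seh1cKO over control was higher at gene ends in 10 of 10 deciles, by 0.30 in the lowest and by up to 0.80. The average over deciles was 0.57. The deciles were cut on the control day 1 value, which is also the denominator of the ratio. The average difference was 0.58 against distal peaks within genes, 0.53 against intergenic peaks within 100 kb of a gene and 0.66 against those further away. The 319 other-end peaks went with the distal ones, at −0.50 relative to start peaks in 5 bins of pileup. By fold enrichment the average over deciles was 0.37, more than 1.5 times smaller.

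**Figure D3:**
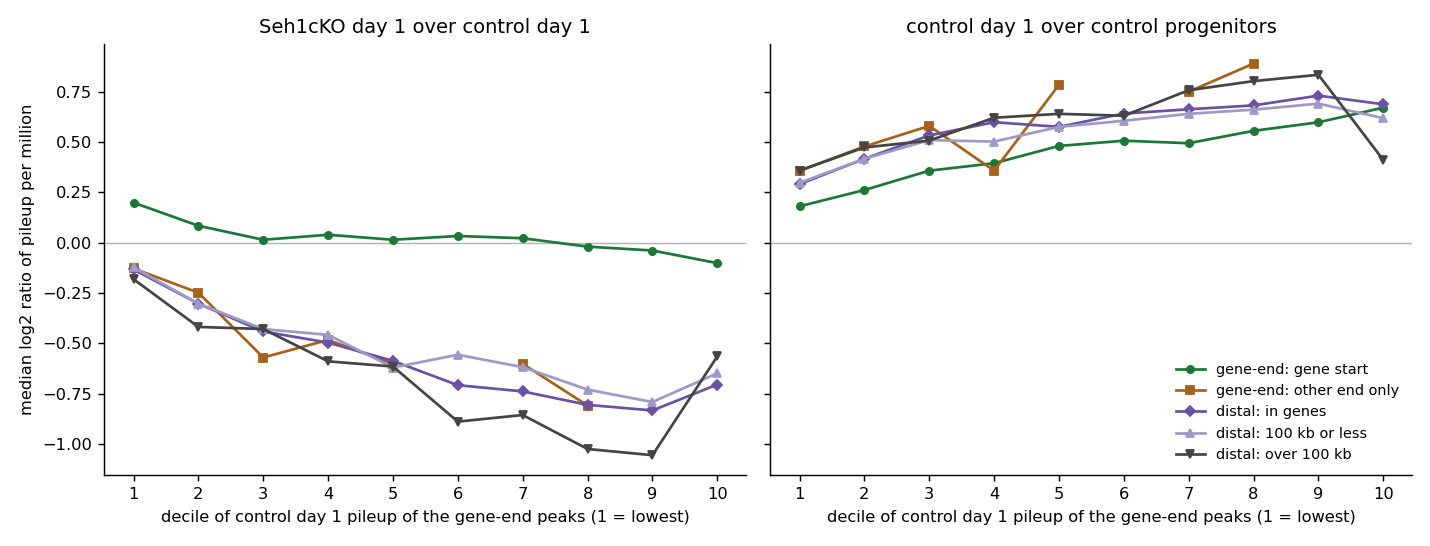
Median log2 ratio of pileup in FPM (y axis) by decile of the control day 1 pileup of the gene-end peaks (x axis), for Seh1cKO over control at day 1 (left) and control day 1 over progenitors (right), with lines for gene-start and other-end-only members and for distal constant peaks within genes, within 100 kb of a gene and further away; bins under 20 peaks are not drawn. Left, the start line stays above every distal line in all 10 deciles; right, it lies below the line of distal peaks within genes in all 10.

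Few members differed by 2-fold or more. Pileup relative to depth was at least 2-fold higher in Seh1cKO cells at 135 members (1.42%), where all constant peaks gave 0.945%. It was at least 2-fold lower at 215 members (2.26%), against 13.3% of all constant peaks and 19.9% of distal ones. Of the 215, 115 were start peaks and 54 were other-end peaks, although other-end peaks made up only 319 of the 9521 members. The SD of the log2 ratio over members was 0.463, beside a median counting SD of 0.335 for a single member.

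The highest ratios came from sites that the caller divided. By the rule for named genes the 6 highest ratios were at Armc5, Pnpla7, Larp4b, Mlf2, Rab11fip5 and Dnajc3, at 4.39- to 5.96-fold. At each of them a narrow control day 1 peak was 1 of 2 pieces under a single wide Seh1cKO peak, so the ratio compares unlike stretches of DNA. At Pnpla7, a lysophospholipase gene, the Seh1cKO peak was 1177 bp wide with 93 fragments, and the control day 1 piece was 254 bp wide with 30 fragments. Of the 135 members at least 2-fold higher, 51.1% matched 1 peak both ways, against 83.1% of all members.

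Among members that matched 1 peak both ways and had at least 3 FPM in either library, a set added after the values were seen, the highest ratios were lower. Shmt1, the cytosolic serine hydroxymethyltransferase gene, had 35 fragments in Seh1cKO cells and 19 in control cells at day 1, an FPM ratio of 3.10 (1.73 to 5.74). Mtf2, which encodes a partner of the Polycomb complex PRC2, had the same counts. Ppfia1, the gene of the scaffold liprin-alpha-1, had 49 fragments in Seh1cKO cells and 28 in control cells at day 1, or 2.95-fold (1.82 to 4.87). Dnajc30, Pef1 and Zpbp2 followed at 2.78- to 2.91-fold. All 6 control counts were under 30 fragments, near the floor that the rule sets in that library alone.

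The lowest ratios had higher counts in control cells at day 1, but only 10 to 18 fragments in Seh1cKO cells. Macrod2, a mono-ADP-ribose hydrolase gene, had 10 fragments in Seh1cKO cells and 92 in control cells at day 1 at its other end, an FPM ratio of 0.18 (0.08 to 0.35). At the other end of Lyst, a gene of lysosomal trafficking, there were 13 and 109 fragments (0.20, 0.10 to 0.36). Adamts8, a secreted metalloprotease gene, had 11 and 86, and Zfhx3, a homeobox factor gene, 18 and 115. In progenitors these 4 had 12, 14, 36 and 35 fragments, so each was highest in control cells at day 1. A pick by low ratio favours high values in control cells at day 1, so this is not separate evidence. The other 2 of the 6 lowest, picked in the same way, were start peaks.

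These were S100a3 and Neu4. S100a3 encodes a calcium-binding protein, and its start (chromosome 3, 90559870 to 90560452) had 14 fragments in Seh1cKO cells, 106 in control cells at day 1 and 64 in progenitors. That is 1.29, 5.81 and 2.73 FPM, with a ratio of Seh1cKO over control of 0.22 (0.12 to 0.39). Neu4 (chromosome 1, 94019930 to 94020708) had 17, 101 and 48 fragments, or 1.57, 5.53 and 2.05 FPM, and a ratio of 0.28 (0.16 to 0.48). Its promoter is the CG-poor one printed above. Tubb4a, a tubulin gene abundant in oligodendrocytes, had 1.38, 4.49 and 2.26 FPM, with a ratio of 0.31 (0.16 to 0.54). Tubb4a was picked with its values known.

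The stage comparison, control day 1 over progenitors, describes how these gene ends stood as differentiation began. The median log2 ratio was 0.49, or 1.40-fold, and 87.9% of members were above 0. Distal constant peaks had 0.52 and all constant peaks 0.51, so by pileup (FPM) the median member was close to other sites. Within deciles of control day 1 pileup the members lay 0.11 below distal peaks on average, but 0.067 above them among peaks with at least 2 FPM in all 3 libraries (an alternative chosen after the data were seen). By fold enrichment the median member was at 0.14 and the median distal constant peak at 0.24. With distal medians of pileup set equal, the median member was at −0.04, the opposite sign. Whether gene ends were higher at day 1 thus depends on the scale.

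At least 2-fold higher at day 1 were 951 members (9.99%), against 17.2% of all constant peaks and 21.4% of distal ones. At least 2-fold lower were 27 members (0.284%), against 0.447%. Of the 27, only 2 matched 1 peak both ways, and the median width was 263 bp in control cells at day 1 and 1094 bp in progenitors. The 6 lowest ratios, at Dnajc3, G0s2, Pprc1, Pnpla7, Slc25a33 and Luzp2, were of this divided kind. Among members that matched 1 peak both ways and had at least 3 FPM in either library, the lowest were Cfap69, Slc25a22, Slc30a6, Ppp1r9b, Vcam1 and Tmed4, at 0.54 to 0.66 of the progenitor value.

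The highest day 1 ratios were mostly at other gene ends. Lyst had 109 fragments in control cells at day 1 and 14 in progenitors, an FPM ratio of 9.98 (5.70 to 18.9). Macrod2 had 92 and 12 (9.83, 5.36 to 19.7), and Snn, which encodes stannin, 110 and 18 (7.83, 4.73 to 13.7). Gm3435 had 71 and 13, Mettl21e 70 and 15, and Epcam, the epithelial adhesion molecule gene, 93 and 24. In Seh1cKO cells these last 4 had 19, 18, 12 and 20 fragments. All 6 were lower in Seh1cKO cells than in control cells at day 1. Both ratios of these sites use the same control day 1 value, which was picked as high, so they are not separate evidence.

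CG content went with membership and, weakly, with the ratio between genotypes. RefSeq promoters on the autosomes that could be matched numbered 20085. The 7394 whose start lay inside a member (in 6168 peaks) had a median CpG observed over expected of 0.81 and a median GC content of 62.3%, against 0.59 and 57.0% for all. The 9082 whose start lay in no peak of any library had 0.23 and 49.3%. A value of at least 0.6 was found for 84.2% of promoters in members and 13.8% of those in no peak.

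The share of promoters inside a member climbed with CpG observed over expected up to 1. It was 1.47% below 0.2, 7.27% from 0.2 to 0.4, 33.8% from 0.4 to 0.6, 58.7% from 0.6 to 0.8, 67.2% from 0.8 to 1 and 64.7% above 1. In the same bins the median log2 ratio of Seh1cKO over control was −0.28, −0.14, −0.05, 0.01, 0.04 and 0.11. The lowest bin holds 63 promoters. The ratio of control day 1 over progenitors showed no such order, at 0.49 to 0.51 in all 6 bins. Within 5 bins of control day 1 pileup, promoters under 0.6 lay on average 0.15 below the others in the ratio of Seh1cKO over control, by 0.22 in the second bin and 0.04 in the highest. GC content moved together with these classes, and its part in the ratio was not tested.

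**Figure D4:**
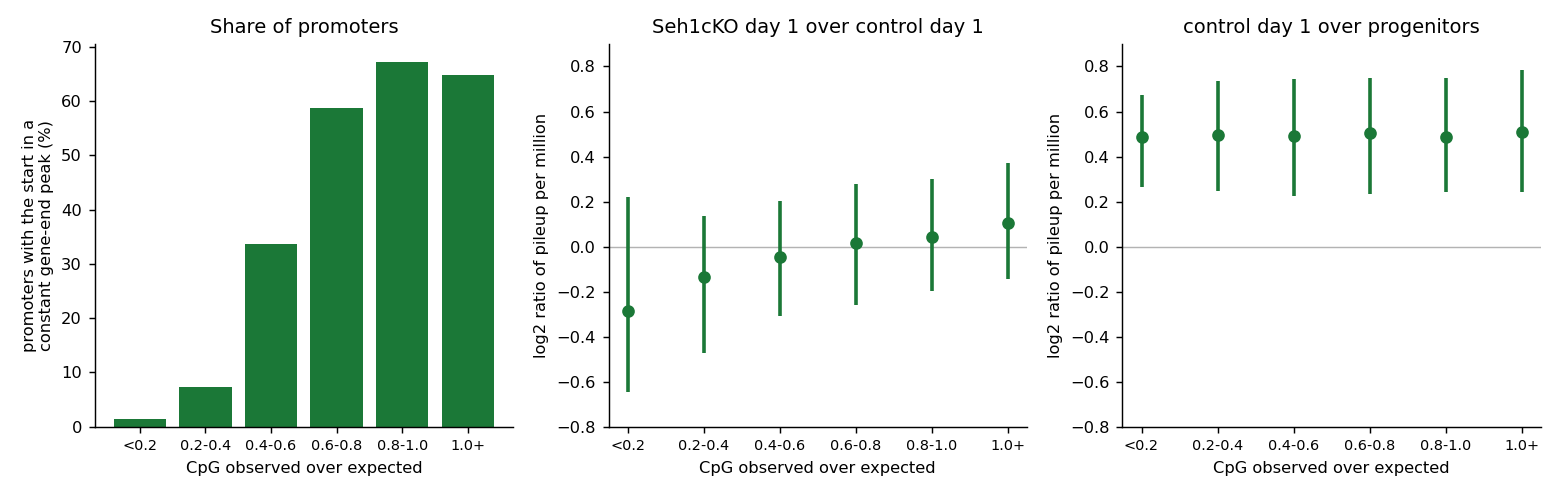
CpG observed over expected of RefSeq promoters (x axis, 6 bins) against the percent with the start inside a constant gene-end peak (left bars), the log2 ratio of pileup (FPM) of Seh1cKO over control at day 1 (middle) and of control day 1 over progenitors (right); points are medians and bars the middle 50% of promoters. The share climbs from 1.47% to 67.2% and drops to 64.7% in the last bin, the genotype ratio climbs from −0.28 to 0.11, and the stage ratio stays at 0.49 to 0.51.

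Short motifs were counted in the 300-base windows on both strands, with matches allowed to overlap. The motifs were chosen with earlier results of these data known. GGGCGG, the GC box bound by SP factors, occurred in 71.0% of promoters in members, 47.0% of all promoters and 21.4% of those in no peak. CCGGAAG, an ETS motif, occurred in 22.6%, 11.9% and 2.94%. The NRF1 motif, a palindrome of 10 letters, occurred in 2.80%, 1.34% and 0.154%, the YY1 motif, also of 10 letters, in 2.64%, 1.18% and 0.0881%, and TGACGTCA, bound by CREB and ATF factors, in 4.29%, 2.30% and 0.694%. All 5 hold CG dinucleotides, and their shares were not separated from the CG content just described.

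The TATA box core, both E-boxes and the paired SOX motif, none of which needs a CG dinucleotide, were less frequent in members than in promoters in no peak, while CCAAT and the ZNF143 motif were more frequent. TATAAA, the TATA box core, occurred in 5.40% of promoters in members, 12.7% of all promoters and 20.9% of those in no peak. The E-boxes CAGATG and CAGCTG, of a kind bound by Olig2 and other bHLH factors, occurred in 10.1%, 14.6% and 19.4%, and in 14.1%, 15.6% and 16.8%. The paired SOX motif, with 6 free letters between inverted sites, occurred in 0.189%, 0.339% and 0.495%, which is 14, 68 and 45 promoters. CCAAT, bound by NF-Y, occurred in 41.8%, 38.1% and 36.6%. None of these shares was separated from GC content, with a median of 62.3% for promoters in members and 49.3% for those in no peak. Members with CCAAT were higher: their median pileup in control cells at day 1 was 3.83 FPM, against 2.79 without it.

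The 2 other motifs were CACGTG, an E-box of USF and MYC factors, in 10.8% of promoters in members and 7.89% of all, and the 11-letter ZNF143 motif, which holds no CG dinucleotide, in 0.920% and 0.443%. Of promoters in no peak, 5.11% held CACGTG and 0.044% the ZNF143 motif. Members with the NRF1 motif had a median log2 ratio of Seh1cKO over control of 0.21, against 0.01 without it. The paired SOX motif, found in only 14 promoters in members, gave 0.25 against 0.02. The YY1 motif gave 0.12 against 0.02, and CACGTG 0.09 against 0.01. With the TATA core the median was 0.00 and without it 0.02. The part of CG content in these ratios was not tested. A match is a run of letters, not a measured binding site. Etfdh, printed above with its NRF1 match, had 13.7 FPM in Seh1cKO cells, 17.0 in control cells at day 1 and 7.95 in progenitors. Its ratio of Seh1cKO over control thus lay below the median of members with the NRF1 motif.

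The genes of 18 lists were then looked up, with each gene given its highest member peak. Genes of general cell machinery nearly all had one. Members lay at 69 of 75 autosomal genes of cytosolic ribosomal proteins, 60 of 69 of mitochondrial ribosomal proteins, 59 of 69 of respiratory chain subunits, 29 of 31 of proteasome subunits, 36 of 40 of RNA polymerase II and Mediator subunits, 27 of 29 replication and mitosis genes, 24 of 26 SWI/SNF genes and 25 of 29 nucleoporin genes. For all autosomal coding genes the share was 47.9%. Myelin genes had 13 of 28, and markers of neurons 10 of 22, of astrocytes 9 of 20, of endothelial and mural cells 5 of 24 and of microglia and macrophages 4 of 22.

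Machinery genes had slightly higher ratios of Seh1cKO over control than other genes with a member. Across the 9895 genes the median log2 ratio was −0.01, with 89 genes at least 2-fold higher and 206 at least 2-fold lower. The list medians were 0.24 for RNA polymerase II and Mediator, 0.20 for the respiratory chain, 0.19 for replication and mitosis, 0.17 for the proteasome, 0.12 for cytosolic ribosomal proteins, 0.10 for nucleoporins, 0.08 for SWI/SNF and 0.04 for mitochondrial ribosomal proteins. By fold enrichment these lists lay 0.00 to 0.13 above all genes. Few of these genes passed 2-fold: in the RNA polymerase II and Mediator list 1 of 36 was higher (Med20, a Mediator subunit gene), and in the respiratory chain list 1 of 59 was lower.

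The heights of single machinery genes spanned a wide range. Med19, of the Mediator complex, was highest in its list with 12.7 FPM in Seh1cKO cells, 11.8 in control cells at day 1 and 9.44 in progenitors, and Med27 lowest with 2.49, 1.37 and 1.20. Rpl37 had 8.57, 10.1 and 4.96 and Rpl6 1.01, 1.04 and 0.94, both being genes of the large ribosomal subunit. Mrpl18 had 8.30, 11.2 and 5.68, against 1.38, 1.10 and 1.11 for Mrpl13, both of the mitochondrial ribosome. Over all members the median log2 ratio of Seh1cKO over control was 0.17 in the lowest decile of control day 1 pileup and −0.10 in the highest, and the floor of the rule is set in control cells at day 1 alone.

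The other machinery lists spanned similar ranges. Atp5g1, of ATP synthase, had 9.31 FPM in Seh1cKO cells, 7.83 in control cells at day 1 and 5.64 in progenitors, and Ndufs6, of complex I, 2.03, 1.04 and 0.81. The proteasome genes ran from Psmd8 (6.27, 7.06 and 4.06) to Psmb7 (1.57, 1.31 and 0.64). In the replication list Mcm4, a helicase gene, had 9.77, 8.76 and 5.94, and the checkpoint kinase gene Bub1 had 2.49, 1.20 and 1.03. The pileups near 1 FPM rest on about 20 fragments in control cells, where the counting interval is wide.

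The study's own genes were all members. At Seh1l (chromosome 18, 67774466 to 67775603) the peak had 47 fragments in Seh1cKO cells, 70 in control cells at day 1 and 77 in progenitors, which is 4.33, 3.83 and 3.29 FPM. Its ratio of Seh1cKO over control was 1.13 (0.76 to 1.66), an interval that includes 1. Since the deleted part is unknown here, this peak is no check of the knockout. Olig2, a transcription factor of the lineage, had 5.07, 4.60 and 3.76 FPM at its start, a ratio of 1.10 (0.77 to 1.57). Brd7, which encodes a PBAF subunit of the SWI/SNF chromatin remodellers, had 20 fragments in Seh1cKO cells, 19 in control cells at day 1 and 35 in progenitors, a ratio of 1.77 (0.90 to 3.51), and was the lowest of the SWI/SNF list in control cells at day 1. Smarca2, an ATPase gene, was the highest there with 5.53, 8.38 and 4.44 FPM. Of the nucleoporins, Tpr, of the nuclear basket, was highest with 8.76, 11.3 and 5.94 FPM, and Nup133 lowest with 2.67, 1.31 and 1.45. Nup133 and Nup107 belong with Seh1 to the Y complex of the pore, and Nup107 had 6.18, 6.13 and 4.91.

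Regulators of the oligodendrocyte lineage had the same median pileup ratio between genotypes as all genes with a member. By fold enrichment the list lay 0.15 above all genes. Of 30, 22 had a member, the median log2 ratio of Seh1cKO over control was −0.01, and none was 2-fold different between genotypes, where 89 of the 9895 genes were higher and 206 lower. In the stage comparison the list median was 0.34, against 0.50 for all genes with a member, and by fold enrichment 0.00 against 0.15. None passed 2-fold there, where 1001 of the 9895 genes were higher and 2 lower. Id2, an inhibitor of bHLH factors, was highest with 106 fragments in Seh1cKO cells, 146 in control cells at day 1 and 163 in progenitors, and Nkx6-1 was lowest with 16, 20 and 20 fragments. Sox10, a master regulator of the lineage, had 1.94, 2.25 and 2.82 FPM in the same order. Olig1 had 4.33, 5.37 and 3.42, and Myrf, which drives myelin gene expression, 1.48, 1.86 and 1.15. The last 3 genes were picked with their values known.

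Myelin genes had the lowest median pileup ratio of the 18 lists, while by fold enrichment the endothelial and mural markers were lowest, with a median of −0.54 against −0.38 for myelin genes. Of 28 autosomal myelin genes, 13 had a member, with a median log2 ratio of Seh1cKO over control of −0.81 and 11 of 13 below 0. The list lay 0.80 below all genes with a member, and 4 of 13 were at least 2-fold lower, against 206 of the 9895 genes. The 4 were Nfasc, a cell adhesion gene (1.01 FPM in Seh1cKO cells, 2.30 in control cells at day 1 and 2.01 in progenitors), Bcas1, a marker of early myelinating cells (0.92, 2.03 and 1.79), Gal3st1, the sulfatide synthesis enzyme gene (2.12, 4.60 and 1.92), and Enpp2, the autotaxin gene (0.92, 1.92 and 1.03). The 4 had 11, 10, 23 and 10 fragments in Seh1cKO cells and 42, 37, 84 and 35 in control cells at day 1. All 4 Seh1cKO counts lay below the 31 fragments of the median member. In the stage comparison, 4 of 13 were at least 2-fold higher in control cells at day 1, where 1001 of 9895 genes were. They were Gal3st1, Car2, Fa2h and Trf.

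Of the other myelin genes, only Sirt2 and Mbp had log2 ratios of Seh1cKO over control above 0 (0.18 and 0.01). Car2, Ugt8a, Cnp and Plekhb1 lay at −0.87, −0.81, −0.81 and −0.66, and Fa2h, Myrf and Trf at −0.42, −0.34 and −0.15. Sirt2, a deacetylase gene, was highest with 6.82 FPM in Seh1cKO cells, 6.02 in control cells at day 1 and 4.66 in progenitors. Mbp, the myelin basic protein gene, was lowest in control cells at day 1, with 1.11, 1.10 and 1.32. Cnp, which encodes a myelin phosphodiesterase, had 1.66, 2.90 and 1.92, and Ugt8a, the galactolipid synthesis gene, 2.03, 3.56 and 2.65. By fold enrichment the list lay 0.26 below all genes rather than 0.80. With distal medians set equal the list median was −0.36 and that of all genes with a member 0.44, a scaling that moves every gene alike. The myelin members were also narrow, with a median width of 381 bp in Seh1cKO cells, 544 bp in control cells at day 1 and 527 bp in progenitors.

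Progenitor genes had a median of −0.33 over the 22 of 29 with a member, 0.32 below all genes, with 18 of 22 below 0. At least 2-fold lower in Seh1cKO cells were 3 of 22, against 206 of the 9895 genes. They were Bcan, the brevican gene (1.66 FPM in Seh1cKO cells, 4.33 in control cells at day 1 and 3.16 in progenitors), Gpr17, a receptor gene of committed progenitors (4.33, 9.42 and 5.51), and Vcan (1.48, 3.12 and 1.37). These 3 had 18, 47 and 16 fragments in Seh1cKO cells and 79, 172 and 57 in control cells at day 1. Etv5, a target of growth factor signalling, was highest with 9.31, 9.42 and 6.24 FPM, and Egfr lowest with 1.66, 1.31 and 1.15. With distal medians set equal the list median was 0.12, the opposite sign, and that of all genes with a member was 0.44. This scaling moves every gene alike, so the list stayed 0.32 below all genes. By fold enrichment the list lay only 0.03 below all genes. The low standing of this list was therefore seen by pileup (FPM) and hardly by fold enrichment. Its promoters had a median CpG observed over expected of 0.59 over the 13 with a sequence, against 0.81 for all genes with a member.

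**Figure D5:**
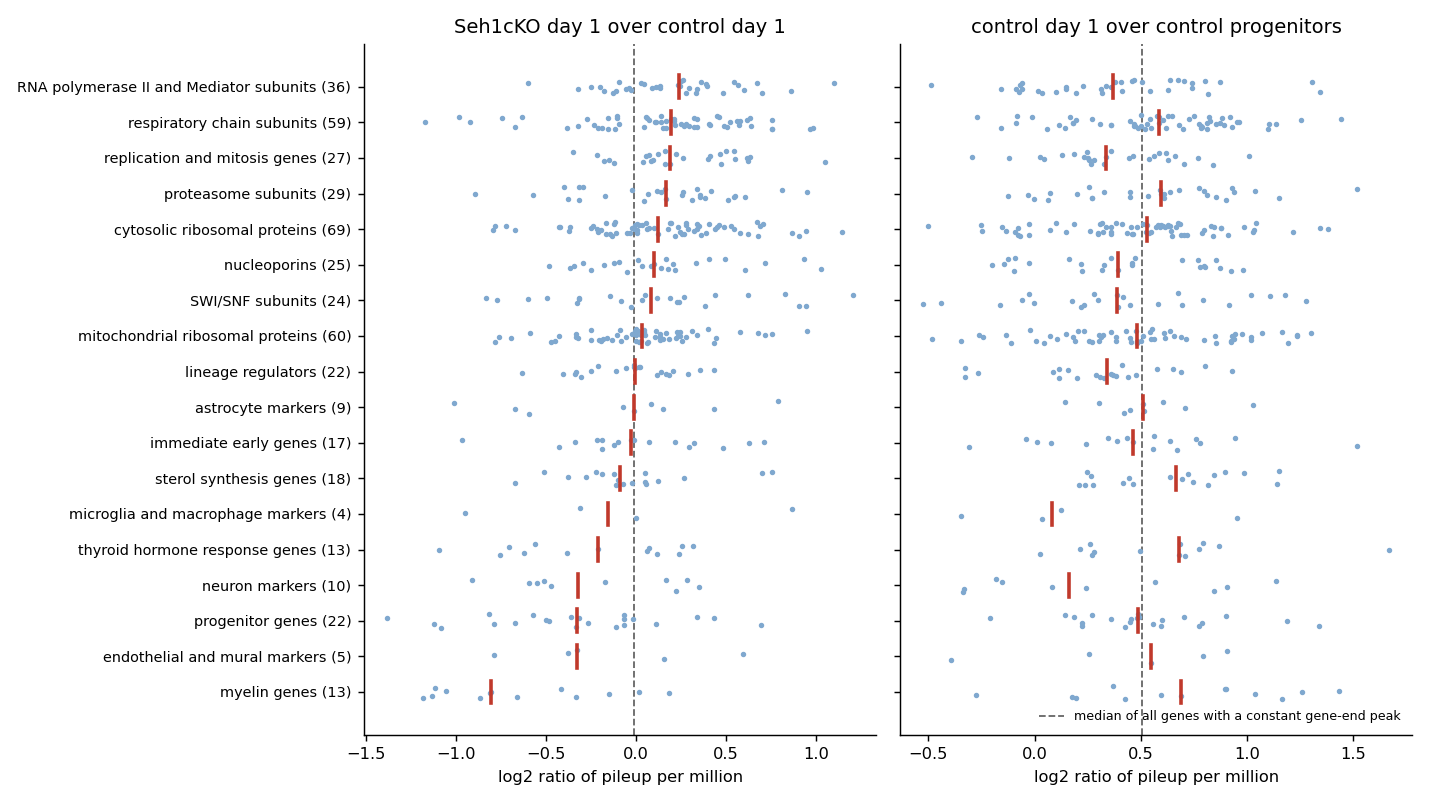
Log2 ratio of pileup (FPM) by gene list, for Seh1cKO over control at day 1 (left) and control day 1 over progenitors (right); each point is a gene's highest member peak, short bars are list medians and the dashed line is the median of all 9895 genes with a constant gene-end peak. Myelin genes (median −0.81) and progenitor genes (−0.33) lie left of the line in the left panel. So do endothelial and mural (−0.33), neuron (−0.32), thyroid hormone response (−0.21), microglia and macrophage (−0.16), sterol synthesis (−0.09) and immediate early genes (−0.03). The machinery lists lie on the line or right of it.

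Sterol synthesis genes had the highest gene-end peaks of the lists. Over 18 of 23 with a member the median pileup (FPM) was 6.96 in Seh1cKO cells, 7.12 in control cells at day 1 and 4.06 in progenitors, where all genes with a member had 3.04, 2.96 and 2.14. Hmgcs1, the gene of HMG-CoA synthase, had 11.4, 16.3 and 9.74, and Srebf1, a regulator gene with a member at its other end only, had 1.48, 1.92 and 1.62. The list median of the genotype ratio was −0.09, with none of the 18 beyond 2-fold. In the stage comparison the median was 0.67, against 0.50 for all genes, but by fold enrichment both were at 0.15.

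Thyroid hormone response genes had members at 13 of 19, with a median log2 ratio of −0.21 for Seh1cKO over control, against −0.01 for all genes with a member, and of 0.68 for control day 1 over progenitors, against 0.50. By fold enrichment both differences from all genes had the opposite sign: the list lay 0.06 above all genes in the genotype ratio, and its stage median was 0.05, against 0.15 for all genes. Klf9, a direct target of the hormone receptor, had 6.18 FPM in Seh1cKO cells, 5.91 in control cells at day 1 and 3.67 in progenitors. Hr, a corepressor gene induced by the hormone, had 2.67, 3.94 and 1.24, and was picked with its values known. Nrgn was lowest with 1.29, 1.10 and 0.68. Immediate early genes, which respond to handling and growth factors, had members at 17 of 20 and a genotype median of −0.03, with Klf6 highest (7.28, 7.34 and 4.27) and Fosl1 lowest (0.65, 1.26 and 0.85).

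Marker genes of other cell types had lower list medians than all genes with a member. They were 1.84 FPM in Seh1cKO cells, 2.14 in control cells at day 1 and 1.37 in progenitors for astrocytes, 1.71, 1.89 and 1.69 for neurons, 1.66, 1.72 and 1.86 for microglia and macrophages, and 1.57, 1.75 and 1.37 for endothelial and mural cells. The highest were Glul of astrocytes (5.16 FPM in Seh1cKO cells, 5.20 in control cells at day 1 and 3.89 in progenitors), Vtn of mural cells (4.15, 3.72 and 3.12), Map2 of neurons (2.21, 4.16 and 2.22) and P2ry12 of microglia (1.84, 3.56 and 1.84). The lowest were Fgfr3 (1.84, 1.37 and 1.24), Erg (0.83, 1.04 and 0.56), Gad1 (1.29, 1.15 and 1.45) and Spi1 (1.01, 1.26 and 1.15) in the same order of cell types. The genotype medians were −0.01 for astrocytes, −0.32 for neurons, −0.16 for microglia and macrophages and −0.33 for endothelial and mural cells. By fold enrichment astrocyte genes lay 0.16 above all genes, and neuron genes 0.21, microglia and macrophage genes 0.23 and endothelial and mural genes 0.42 below. The last 3 lists were thus below all genes with a member, as the myelin and progenitor lists were. Their part in the myelin and progenitor results was not tested. Whether other cells added to any gene-end value was not tested.

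The edges of the rule cut through a continuous range. At the floor, 143 members had 19 fragments in control cells at day 1 (1.04 FPM), and 127 peaks with 18 fragments (0.986 FPM) met every other condition. The median pileup (FPM) was 1.20 in Seh1cKO cells, 1.04 in control cells at day 1 and 0.98 in progenitors just inside, and 1.11, 0.99 and 0.94 just outside. Just inside were Wnt6 (8, 19 and 13 fragments), Spag16 (11, 19 and 19) and Col5a2 (11, 19 and 13), and just outside Elf3 (8, 18 and 19), Daw1 (20, 18 and 35) and Gtf3c3 (9, 18 and 23). The widest members, at 1182 bp, were those of the phosphatase gene Dusp1, of 2510009E07Rik, of the adhesion receptor gene Adgra3 and of Rabgef1, whose pileups were 4.61, 2.77, 2.58 and 4.43 FPM in Seh1cKO cells and 3.34, 2.90, 2.36 and 4.11 in control cells at day 1.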

How the data were processed

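Peaks of 3 mouse ATAC-seq libraries were analysed, 1 per group and without replicates. The submitters' processing notes name Bowtie2, SAMtools, MACS2 and the build mm10. Each library had its own peak list, made by MACS 2.1.2_dev per the file headers, which kept duplicates and set q at 0.05, gaps at up to 50 bp and lengths at 100 bp or more. The deposited tables give each peak's pileup signal at the summit in fragments, its fold enrichment (a ratio of pileup to local background), and the −log10 of its p and q value, per the file headers. Kept duplicates can raise a pileup, and no table used here measures this. Pileups were divided by the fragments in the header and multiplied by 1000000 (FPM). Where several peaks of another library overlapped a member, the one of highest pileup was taken. The members, gene lists and motifs were chosen with earlier results of these data known.

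Genes came from RefSeq for GRCm38.p6 (21887 coding genes, 17492 with strand), and promoter sequences from the RefSeq promoter table. Gene lists were matched by symbol, and Atp5f1, Nup96 and Nup58 were not matched. A peak is named by the gene end nearest to its summit. Named were the 6 highest pileups in control cells at day 1 and the 6 highest and 6 lowest ratios of each comparison. These ratios were ranked among peaks with at least 3 FPM in either library of the pair and exactly 1 overlapping peak in each other list. Also named were the highest and lowest of each gene list, the study's genes, and the peaks at the edges of the rule. Promoters of peaks that were pieces of a divided site are not printed. Ratio intervals are exact at 95% and cover counting error alone, and copies of 1 molecule could not be told apart. Counts of 2-fold differences are descriptions, and no test between conditions was made. Scripts ran in Python 3.11.15 with pandas 2.3.3, numpy 2.4.6, scipy 1.17.1 and matplotlib 3.10.9, and were tested on simulated data.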

Additional observations from a re-analysis of the deposited data

How the results depend on the processing

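Of 11 other settings, 9 were planned and 2 were added after seeing the data (start peaks only, and at least 2 FPM in all 3 libraries). The number of members stayed within 1.5 times of 9521 in all 8 settings that change it. The median log2 pileup ratio of Seh1cKO over control is −0.016 and changed sign with little movement, to 0.0069 with a stricter overlap (a share of 0.5 of each peak), 0.0049 starting from progenitor peaks, 0.0047 starting from Seh1cKO peaks and 0.0016 with start peaks only. It was 0.43 with distal medians set equal, −0.12 by fold enrichment and −0.037 at 2 FPM. The ratio of control day 1 over progenitors, 0.49, became −0.036 with distal medians equal, 0.14 by fold enrichment, 0.55 at 2 FPM, 0.46 from progenitor peaks and 0.47 from Seh1cKO peaks. The gene-end minus distal difference for Seh1cKO over control, 0.57, was 0.37 by fold enrichment, 0.41 at 2 FPM in all libraries, 0.67 at 2 FPM in control cells at day 1, 0.50 with stricter overlap, 0.53 from progenitor peaks and 0.47 from Seh1cKO peaks. For control day 1 over progenitors it was −0.11, and 0.067, the opposite sign, at 2 FPM in all libraries, −0.038 with stricter overlap, −0.029 from progenitor peaks and −0.060 from Seh1cKO peaks. The log2 width ratio of Seh1cKO over control, −0.22, was −0.19 at 2 FPM, −0.18 with stricter overlap, −0.24 with the widest peaks kept, −0.26 from Seh1cKO peaks, −0.21 with peaks matched 1 to 1 and −0.21 with start peaks only. That of control day 1 over progenitors, 0.035, was 0.025 with stricter overlap, 0.048 with the widest kept, 0.053 from progenitor peaks and 0.048 from Seh1cKO peaks. The cause was not tested. No paired analysis was possible because each group has 1 library. The depth of the Seh1cKO library, a median of 31 fragments per member, limits every single-site ratio.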

Other observations

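Gene families, grouped by the start of their symbols after their values were seen, ran from nearly none to nearly all in the share of genes with a constant gene-end peak. Of 33 families with at least 40 autosomal genes, keratin genes (Krt) had 0 of 53, beta-defensin genes (Defb) 0 of 42, olfactory receptor genes (Olfr) 1 of 1104 and vomeronasal receptor genes (Vmn) 2 of 354. Cytochrome P450 genes (Cyp) had 12 of 99, interleukin and receptor genes (Il) 14 of 78 and collagen genes (Col) 12 of 42. At the upper end were zinc finger genes (Zfp) with 270 of 388, Rab GTPase genes with 50 of 65, translation initiation factor genes (Eif) with 45 of 53 and mitochondrial ribosomal genes (Mrpl) with 43 of 49. The median log2 ratio of Seh1cKO over control was −0.31 for Col, −0.25 for Cyp, 0.04 for Zfp and 0.10 for Mrpl, against −0.01 for all genes with a member. Symbols that share a start do not always share a function, and families of near-identical genes can lose fragments where reads map to several places.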
